A study of Mus musculus with 4 samples.

Results

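Pancreatic duct cells are represented here by 9 genes chosen by symbol and not by a threshold on their values: Sox9, Cftr, Slc4a4, Car2, Aqp1, Spp1, Sctr, Epcam and Onecut1. They were chosen with earlier results of these data known. All 9 were found among the 55401 genes of the count table, and all 9 passed the filter on low counts that left 15131 genes for testing. Cftr passed it through its WT libraries alone. Each of the 9, and the duct markers Krt19 and Krt7, had counts in every library. The libraries are poly(A)-selected RNA from mouse pancreatic tissue next to tumours, with the tumour line given as Panc02, a mouse pancreatic ductal adenocarcinoma line. There were 2 libraries from wild-type mice (WT 1 and WT 2) and 2 from mice labelled CRFR1-KO (CRFR1-KO 1 and CRFR1-KO 2), a conditional knockout of the receptor for corticotropin-releasing factor. The title of the series places the receptor in mast cells and concerns cancer pain, but the labels give neither the Cre driver nor strain, age or sex, and do not say that the 2 libraries of a genotype came from separate animals. The spread behind each p-value below is thus that of these 4 libraries and may be purely technical. The targeted gene, Crhr1, had a count of 0 in all 4 libraries (a floor of 3 counts allows up to 0.048 CPM, counts per 1e+06 scaled counts, for counting error only), so it could not serve as a check of the genotype labels.

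Duct cells line the tubes that carry digestive enzymes out of the pancreas, and they add water and bicarbonate to that juice. Secretin, a hormone of the gut, binds its receptor on the duct cell (Sctr), cyclic AMP rises, the chloride channel CFTR opens at the apical membrane, and chloride is exchanged for bicarbonate, which enters the cell through the basolateral sodium-bicarbonate cotransporter (Slc4a4) or is made inside it by carbonic anhydrase 2 (Car2). Water follows, in part through aquaporin 1 (Aqp1). Sox9 and Onecut1 encode transcription factors of the duct and of the embryonic pancreas, Epcam encodes an epithelial adhesion molecule, and Spp1 encodes osteopontin, a secreted glycoprotein of duct epithelium that macrophages also make.

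Promoter sequence was matched for 6 of the 9 genes, with 8 start sites in all (RefSeq, GRCm38.p6). The 250 bases before the start are printed for the most abundant gene, Spp1 (chr5:104434861-104435110, plus strand), and for the gene with the largest fold difference in the fit of all 4 libraries, Cftr (chr6:18170437-18170686, plus strand), because they show how unlike these promoters are. A match to one of the motifs searched would stand in capitals, and neither window held one.
Spp1: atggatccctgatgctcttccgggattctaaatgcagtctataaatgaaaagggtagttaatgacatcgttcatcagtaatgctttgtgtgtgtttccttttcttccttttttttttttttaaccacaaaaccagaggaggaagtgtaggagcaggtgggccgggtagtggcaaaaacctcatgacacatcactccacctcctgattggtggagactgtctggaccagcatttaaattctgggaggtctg
Cftr: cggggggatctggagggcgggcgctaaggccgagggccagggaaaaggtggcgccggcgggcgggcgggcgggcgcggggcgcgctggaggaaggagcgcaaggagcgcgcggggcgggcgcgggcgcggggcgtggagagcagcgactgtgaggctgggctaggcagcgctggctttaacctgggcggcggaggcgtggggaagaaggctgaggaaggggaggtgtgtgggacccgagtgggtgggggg
The Spp1 window had a GC content of 43.6% with 3 CpG sites, and the Cftr window one of 76.4% with 30. The motifs ATCGAT and ATCAAT (ONECUT), TGTTTAC (FOXA), ACAATG (SOX), TGACGTCA (CREB) and TGANTCA (AP-1) had no match on either strand in the 8 windows. Of all 32851 RefSeq promoter windows of the same length, 0.728%, 6.72%, 3.17%, 10.7%, 1.55% and 6.75% held them, in that order.

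Of the 9 duct genes, 8 were measured lower in CRFR1-KO than in WT, with a median log2 fold change of -1.10. Over all genes tested, 50.8% were lower and the median was -0.01. A filter of at least 1 CPM in 2 libraries dropped Cftr, Car2 and Sctr. Of the 6 duct genes left, 5 were lower, with a median of -0.60. For 7 of the 9, both CRFR1-KO libraries lay below both WT libraries, which was so for 16.9% of all genes tested. The 8 and the 7 include Cftr, which passed the filter on low counts only through WT, so its direction is tied to that filter. None passed after adjustment over all genes: 0 of 9 had an edgeR quasi-likelihood adjusted p under 0.05, where 0.0264% of all genes did, and 6 of 9 were lower at an unadjusted p under 0.05, where 3.15% of all genes were. The DESeq2 Wald test called 1 of the 9, Spp1, against a background of 0.294% of genes called lower, and limma-voom called 0, as it did for all genes (0%). The 9 genes were chosen with earlier results known and measured in the same libraries, so they are not independent observations. The shares above describe them and are not a test of the set. In bulk tissue, fewer duct cells and less RNA per duct cell cannot be told apart. Values of the WT pair and of the CRFR1-KO pair are given with library 1 first, and "pair" means only the 2 libraries of a genotype. CPM levels are on library sizes scaled by the trimmed mean of M values.

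**Figure D1:**
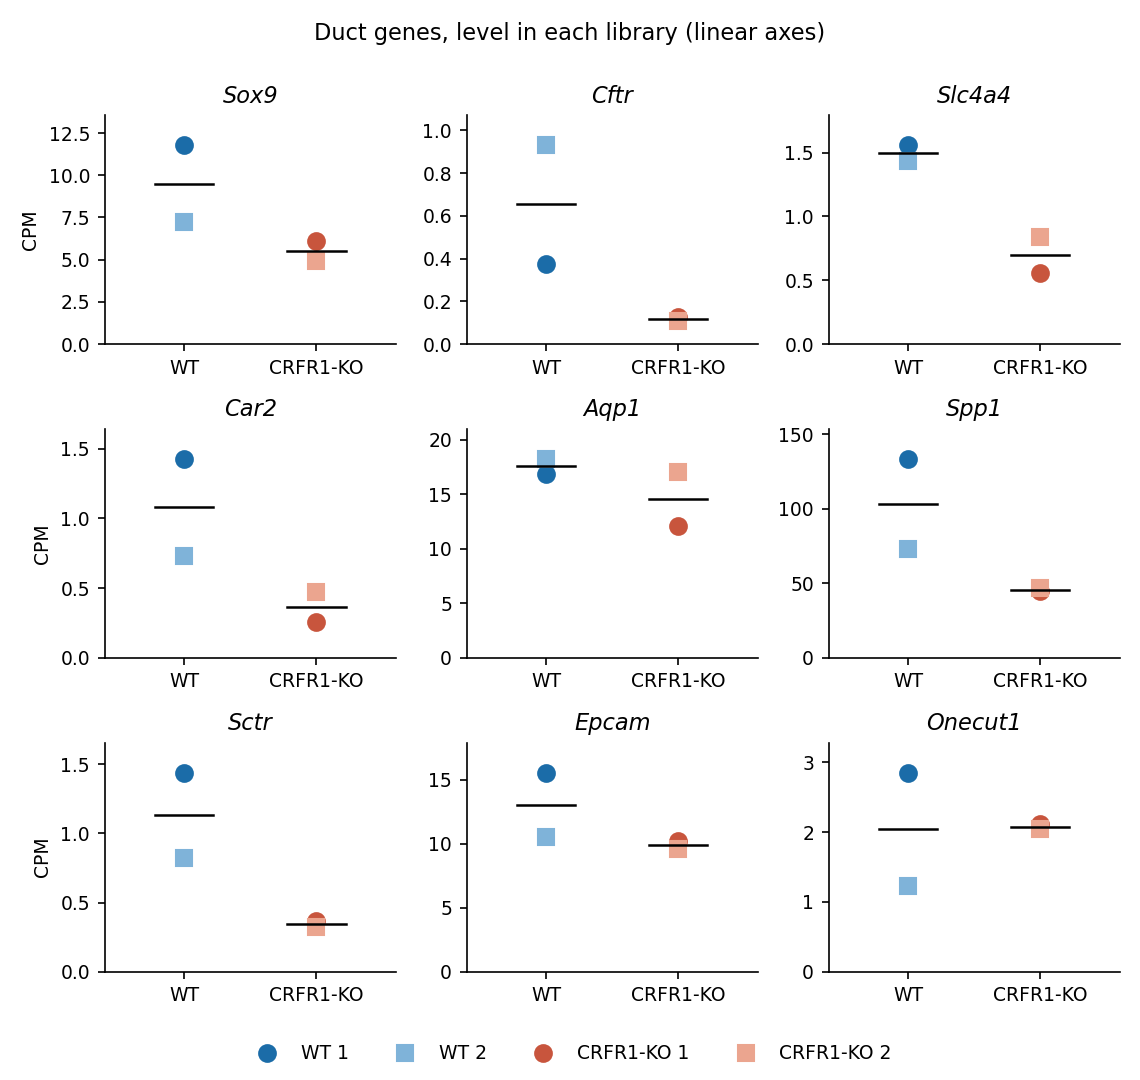
Level of each of the 9 duct genes in CPM (linear axis from 0), with 1 point per library and a bar at the mean of the 2 libraries of a genotype. The WT and CRFR1-KO points are apart for 7 genes and overlap for Aqp1 and Onecut1, and the 2 WT points are farther apart than the 2 CRFR1-KO points for most genes, with Slc4a4 and Aqp1 as exceptions.

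The secretin receptor gene Sctr (ENSMUSG00000026387; chromosome 1, 120006894 to 120063536, GRCm38 in GENCODE M21) had 119 and 54 counts in the WT pair and 23 and 21 in the CRFR1-KO pair. On the CPM scale this was 1.44 and 0.825 in the WT pair and 0.368 and 0.321 in the CRFR1-KO pair. The 2 CRFR1-KO libraries were close together and under the lower WT library, and the WT mean was 3.28-fold the CRFR1-KO level in the fit. Sctr had a log2 fold change of -1.71 (SE 0.56, edgeR adjusted p = 0.948).

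Cftr (ENSMUSG00000041301; chromosome 6, 18170687 to 18322768) encodes the apical chloride and bicarbonate channel and had the largest fold difference of the 9 in the fit of all 4 libraries, on the smallest summed counts. It had 31 and 61 counts in the WT pair and 8 and 7 in the CRFR1-KO pair, or 0.375 and 0.932 CPM against 0.128 and 0.107 CPM. Both CRFR1-KO libraries were below both WT libraries, and here WT 2 was the higher WT library, by 2.49-fold. Its log2 fold change was -2.45 (SE 0.85, edgeR adjusted p = 0.985), with a 95% interval from -4.45 to -0.45. Without WT 2 it was -1.66, smaller than those of Sctr (-2.05) and Car2 (-1.96) in the same fit. Low counts in this table have an uneven distribution: in WT 1, 349 genes had a count of 3, 913 a count of 4 and 242 a count of 5. What 1 count stands for is therefore unsettled, and single-digit counts such as those of Cftr in CRFR1-KO are uncertain beyond counting error. Cftr passed the filter on low counts through its WT libraries alone, so its lower level in CRFR1-KO is tied to that filter.

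The cotransporter gene Slc4a4 (ENSMUSG00000060961; chromosome 5, 88886818 to 89239653) had 129 and 94 counts in the WT pair and 35 and 55 in the CRFR1-KO pair. Its CPM values were 1.56 and 1.44 in the WT pair and 0.560 and 0.840 in the CRFR1-KO pair, so the WT libraries agreed closely (1.50 ± 0.09 CPM, SD, n = 2) and stood above both others. Slc4a4 thus had a log2 fold change of -1.10 (SE 0.43, edgeR adjusted p = 0.9999).

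Car2 (ENSMUSG00000027562; chromosome 3, 14886273 to 14900770), the cytosolic carbonic anhydrase, had 118 and 48 counts in the WT pair and 16 and 31 in the CRFR1-KO pair. In CPM it stood at 1.43 and 0.733 in the WT pair and at 0.256 and 0.474 in the CRFR1-KO pair, again without overlap but with 1.95-fold between the WT libraries and 1.85-fold between the CRFR1-KO libraries. The log2 fold change was -1.56 (SE 0.62, edgeR adjusted p = 0.9999).

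The water channel gene Aqp1 (ENSMUSG00000004655; chromosome 6, 55336432 to 55348555) was the 1 transport gene of the 9 whose libraries overlapped between genotypes. Its CPM was 16.9 and 18.3 in the WT pair and 12.1 and 17.1 in the CRFR1-KO pair. CRFR1-KO 2 lay above WT 1, and the log2 fold change was -0.27 with an interval from -0.75 to 0.21. Aqp1 is also made by the endothelium of blood vessels. The summed level of 12 endothelial markers, all 12 detected and tested, was 91.2 and 84 CPM in the WT pair and 83.4 and 94.1 CPM in the CRFR1-KO pair, with 2 of the 12 lower and 4 higher without overlap, where the shares over all genes were 16.9% and 16.6%. The endothelial part in the Aqp1 level was not tested.

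Sox9 (ENSMUSG00000000567; chromosome 11, 112782224 to 112787760), the transcription factor most used to mark duct cells, had 975 and 472 counts in the WT pair and 380 and 323 in the CRFR1-KO pair. Its CPM was 11.8 and 7.21 in the WT pair and 6.08 and 4.93 in the CRFR1-KO pair. The groups did not overlap, although WT 2 was nearer to CRFR1-KO 1 than to WT 1. The log2 fold change was -0.79 (SE 0.27, edgeR adjusted p = 0.977), and it was -0.39 without WT 1.

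Onecut1 (ENSMUSG00000043013; chromosome 9, 74861921 to 74891781) was the 1 gene of the 9 not measured lower. It had 2.85 CPM in WT 1 and 1.22 CPM in WT 2, and the CRFR1-KO libraries lay between them at 2.11 and 2.05 CPM. The log2 fold change was 0.02 (SE 0.43), with an interval from -0.99 to 1.04 that allows a difference of this size in either direction. Its sign followed the library left out, at 0.77 without WT 1 and -0.45 without WT 2, and it was -0.17 when scaled on library totals. Onecut1 shares exon bases with the noncoding models Gm20649 and Gm16551. Summed over the 3 models, the counts were 568 and 233 in the WT pair and 307 and 275 in the CRFR1-KO pair, with a log2 fold change of -0.20.

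Epcam (ENSMUSG00000045394; chromosome 17, 87635979 to 87651129) stood at 15.6 and 10.5 CPM in the WT pair and at 10.3 and 9.61 CPM in the CRFR1-KO pair. The groups were apart, but WT 2 was 1.06-fold the CRFR1-KO mean and WT 1 was 1.48-fold WT 2. Epcam had a log2 fold change of -0.39 (SE 0.22), and it was -0.08 without WT 1.

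Spp1 (ENSMUSG00000029304; chromosome 5, 104435118 to 104441050) was the most abundant of the 9 and held 56.9% to 72.0% of their summed counts in a library. It had 11047 and 4769 counts in the WT pair and 2798 and 3061 in the CRFR1-KO pair. Its CPM was 134 and 72.9 in the WT pair and 44.8 and 46.8 in the CRFR1-KO pair, with the CRFR1-KO libraries 1.04-fold apart and the WT libraries 1.83-fold apart. The log2 fold change was -1.17 (SE 0.29, edgeR adjusted p = 0.801). DESeq2 called Spp1 lower (adjusted p = 0.00184), as did edgeR without WT 2 (log2 fold change -1.54, adjusted p = 0.009; 0.43% of all genes were called in that fit). Its adjusted p ran from 0.00184 to 0.99996 over the alternatives, and without WT 1 the log2 fold change was -0.67. A small unclassified model, Gm42793, shares exon bases with Spp1 and had at most 27 counts in a library.

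Macrophage and fibroblast markers were also measured lower in CRFR1-KO, beside Spp1. All 12 macrophage markers were detected, and their summed level was 142 and 115 CPM in the WT pair and 53.6 and 84.7 CPM in the CRFR1-KO pair. All 12 were measured lower (median log2 fold change -0.87), 9 of them without overlap (16.9% of all genes) and 6 at an unadjusted p under 0.05 (3.15%). None of the 12 passed the edgeR adjustment, and DESeq2 called 2 of them lower, Lyz2 and Gpnmb, against 0.294% of all genes. The 10 fibroblast markers, also all detected, summed to 509 and 238 CPM in the WT pair and 170 and 194 CPM in the CRFR1-KO pair. Of these, 9 were measured lower and 1 higher (median log2 fold change -0.67). Without overlap 7 were lower (16.9% of all genes), and 6 were lower at an unadjusted p under 0.05 in edgeR (3.15%). After the edgeR adjustment 0 passed. The part of macrophages and fibroblasts in the Spp1 difference, and in that of the other duct genes, was not tested.

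**Figure D2:**
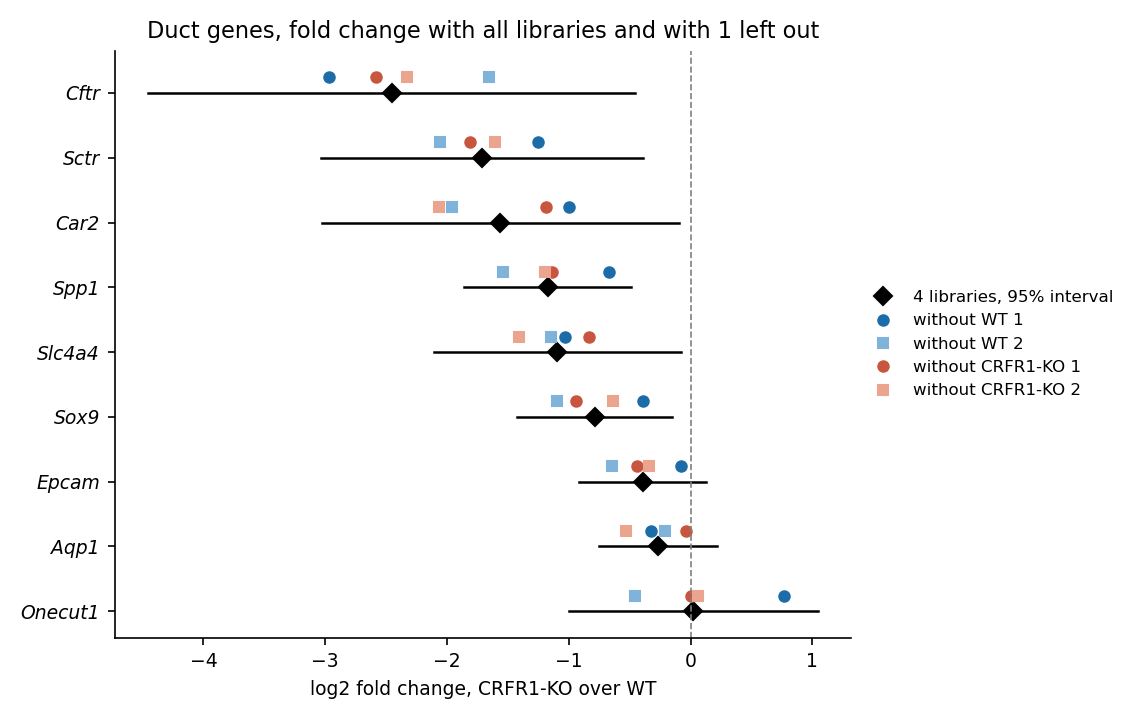
Log2 fold change (CRFR1-KO over WT) of each duct gene in edgeR with all 4 libraries (diamond, with its 95% interval) and with 1 library left out (coloured points). The 6 intervals of Cftr, Sctr, Car2, Spp1, Slc4a4 and Sox9 lie below 0 before any adjustment, and Onecut1 lies on either side of 0 according to which WT library is left out.

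The WT libraries differed from each other for most of these genes: 7 of the 9 were higher in WT 1 than in WT 2, and Cftr and Aqp1 were higher in WT 2. Leaving out WT 1 left 8 of 9 lower with a median log2 fold change of -0.67, and leaving out WT 2 left 9 of 9 lower with a median of -1.15. In each such fit a lone library stands for its group and is assumed to vary like the other group. Relative to the CRFR1-KO mean, the level in WT 2 alone was 7.93-fold for Cftr, 2.40-fold for Sctr, 2.05-fold for Slc4a4, 2.01-fold for Car2, 1.59-fold for Spp1, 1.31-fold for Sox9, 1.25-fold for Aqp1 and 1.06-fold for Epcam. It was lower for Onecut1, at 0.588-fold. WT 1 also stood apart in islet genes, whose 14 markers summed to 43.2 CPM in WT 1 and to between 246 and 305 CPM in the other 3 libraries.

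**Figure D3:**
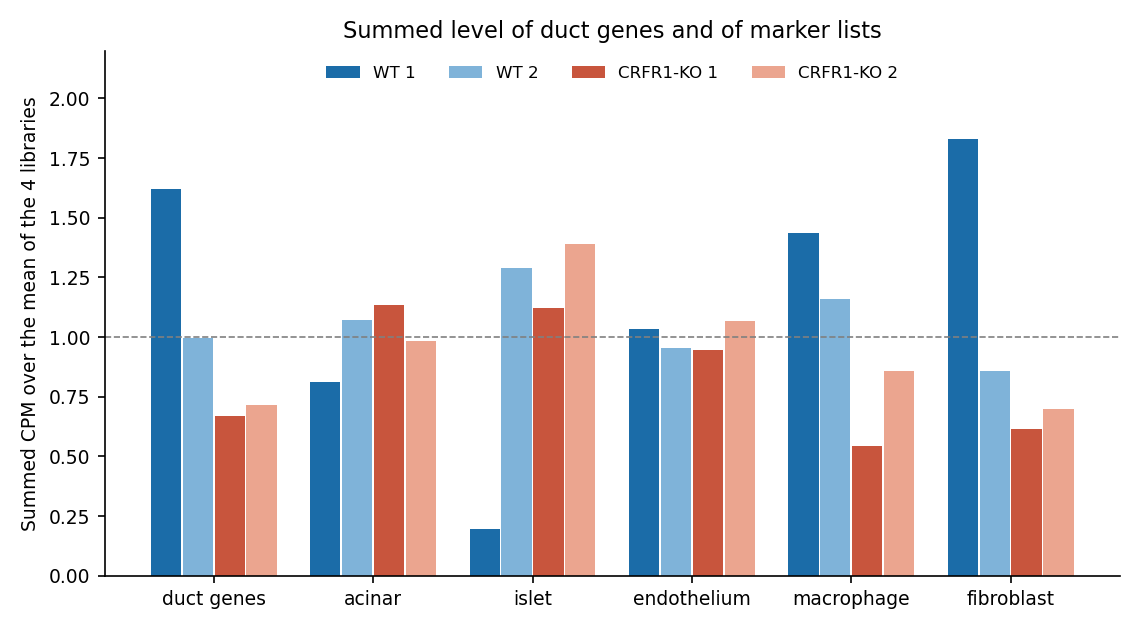
Summed CPM of the 9 duct genes and of 5 marker lists in each library, divided by the mean of the 4 libraries (bars from 0, dashed line at 1). Duct, macrophage and fibroblast sums are highest in WT 1, with both CRFR1-KO bars shorter than both WT bars, whereas the islet sum is lowest in WT 1.

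Per kilobase of exon, the order of the 9 genes in WT was Spp1, Aqp1, Epcam, Sox9, Sctr, Onecut1, Car2, Slc4a4 and Cftr. Spp1 had 62.7 ± 26.1 CPM per kilobase in WT and 27.8 ± 0.9 in CRFR1-KO (SD, n = 2 each), and its lowest library was above the highest of every other gene. Aqp1 at 6.69 ± 0.37 and Epcam at 5.94 ± 1.62 CPM per kilobase in WT overlapped in range. Sox9, at 2.30 ± 0.78, was apart from both neighbours. From Sctr to Cftr each gene overlapped the next, down to 0.0842 ± 0.0507 CPM per kilobase for Cftr in WT, so the transport genes other than Aqp1 were measured at the low end.

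A ratio of counts within a library does not depend on the scaling between libraries, and Epcam and the duct keratin gene Krt19 were taken as denominators after their values were seen. Per 100 Epcam counts, Sctr had 9.25 and 7.84 counts in the WT pair and 3.59 and 3.34 in the CRFR1-KO pair. Cftr had 2.41 and 8.85 in the WT pair and 1.25 and 1.11 in the CRFR1-KO pair, and Car2 had 9.17 and 6.97 against 2.50 and 4.93. These 3 genes were thus lower per Epcam count in both CRFR1-KO libraries. Slc4a4, at 10.02 and 13.6 against 5.46 and 8.74, and Spp1, at 858 and 692 against 437 and 487, followed the same pattern. Sox9 had 75.8 and 68.5 counts per 100 Epcam counts in the WT pair and 59.3 and 51.4 in the CRFR1-KO pair. The WT libraries agreed better on this scale than in CPM for Sox9, Sctr, Car2, Spp1 and Onecut1. They agreed less well for Cftr, Slc4a4 and Aqp1 (109 and 174 counts for Aqp1). In all, 6 of the 8 genes were lower without overlap, against 4.7% of all genes tested, while Onecut1 was higher (18.3 and 11.6 against 20.6 and 21.3; 37.5% of all genes were higher) and Aqp1 overlapped. Per 100 Krt19 counts, 8 of the 9 were lower without overlap, against 26.1% of all genes tested, and Onecut1 overlapped. These ratios use the same counts as the CPM values and are not separate evidence.

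Krt19, Krt7 and Muc1, other genes known from ducts, lay closer together in the 2 genotypes. Prox1 and Dcdc2a lay farther apart (log2 fold changes of -1.41 and -0.96), but they had the smallest p of their related lists. The medians of those lists were -0.23 and -0.19. Krt19, the keratin most used as a duct marker, stood at 8.73 ± 0.19 CPM in WT against 9.50 ± 0.54 CPM in CRFR1-KO (SD, n = 2 each), a log2 fold change of 0.12 with an interval from -0.28 to 0.52, and of -0.01 when scaled on library totals. Krt7, another duct keratin, was at 2.08 ± 0.03 and 1.92 ± 0.40 CPM, with an interval from -0.87 to 0.63. Muc1, an apical mucin that acinar cells also carry, was at 97.3 ± 13.4 and 91.2 ± 9.2 CPM. For Krt19 both CRFR1-KO libraries lay above both WT libraries, as for 16.6% of all genes tested. With 1 library left out, Krt19 kept its sign (0.07 to 0.18), and it turned only on library totals, where the median of all genes moved by -0.126. Krt7 and Muc1 changed sign when 1 library was left out. Whether the fold changes of single duct genes differ from each other was not tested.

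**Figure D4:**
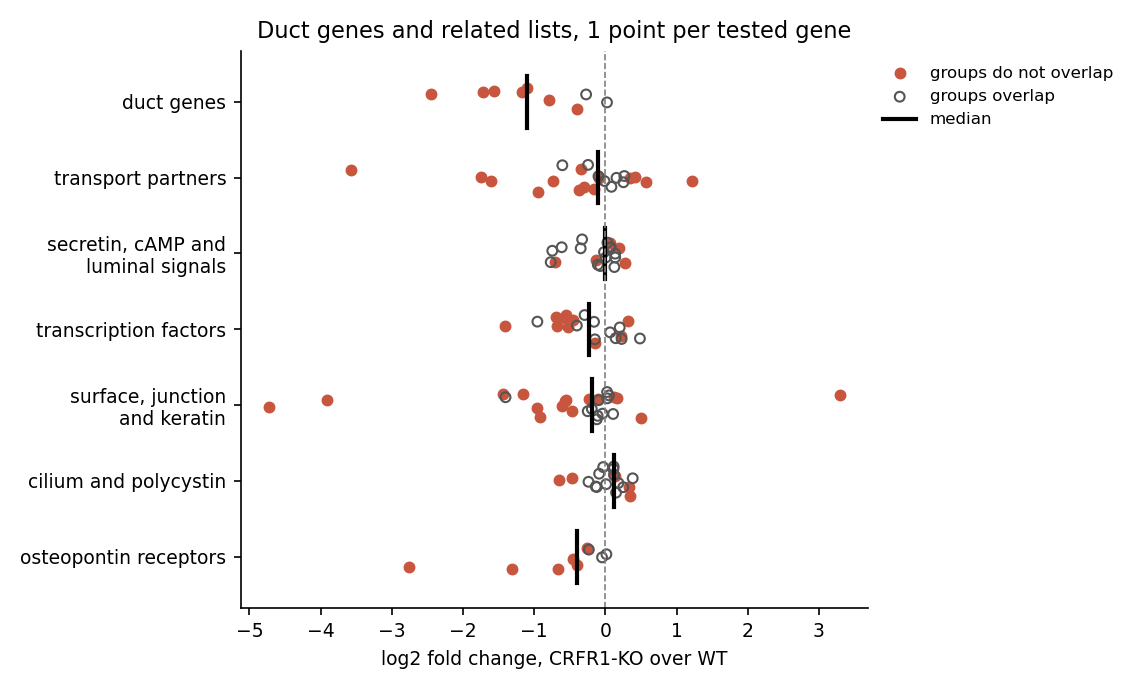
Log2 fold change (CRFR1-KO over WT) of every tested gene of the 9 duct genes and of 6 related lists, with the median of each list as a bar (1 transcription factor counted in its list is not drawn) and filled points where the libraries of the genotypes do not overlap. The duct genes have a median of -1.10, and the medians of the related lists lie between -0.40 and 0.12.

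Genes that work beside CFTR in fluid secretion lay on both sides of no difference. Of 27 listed transport partners, 23 were tested, 15 lower and 8 higher, with a median log2 fold change of -0.10. Lower without overlap were 11 of the 23 and higher without overlap 4, where the shares over all genes were 16.9% and 16.6%, and 0 passed the edgeR adjustment, with 2 lower and 2 higher at an unadjusted p under 0.05 (3.15% and 1.71% of all genes). Atp1b1, the beta subunit of the sodium pump, stood at 15.9 ± 1.3 CPM in WT against 9.59 ± 0.47 CPM in CRFR1-KO (edgeR log2 fold change -0.73, SE 0.17, adjusted p = 0.715). Kcnj15, an inward rectifier potassium channel, had 22 and 84 counts in the WT pair and 8 and 0 in the CRFR1-KO pair. Kcnj15 passed the filter on low counts through its WT libraries alone, so its direction is tied to that filter. On the higher side stood Aqp8, a water channel of acinar cells (9.98 ± 1.78 against 14.8 ± 1.3 CPM), and Car4, a membrane-bound carbonic anhydrase (46 and 53 counts in WT, 124 and 78 in CRFR1-KO). Slc26a6, the apical anion exchanger that works with CFTR, was at 5.64 ± 0.37 CPM in WT against 7.52 ± 1.57 CPM in CRFR1-KO (edgeR log2 fold change 0.42, interval from -0.09 to 0.92). The calcium-activated chloride channel gene Ano1 stood at 22.3 ± 3.2 and 22.1 ± 0.6 CPM, and the sodium-potassium-chloride cotransporter gene Slc12a2 at 15.6 ± 0.4 and 14.7 ± 0.1 CPM (SD, n = 2 each).

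Signals upstream of secretion lay close to the centre of all genes. Of 22 listed genes, 20 were tested, 10 lower and 10 higher, with a median of -0.01 and 0 at an unadjusted p under 0.05 in edgeR in either direction (3.15% and 1.71% of all genes). Scaled on library totals, 17 of the 20 were lower with a median of -0.15. On that scale 10079 of all 15131 genes were lower, with a median of -0.13. Sct, the secretin gene, had 4 counts, all from WT 1, with 0 elsewhere, and was not tested. Gnas, which encodes the stimulatory G protein subunit that couples receptors to cyclic AMP, was at 235 ± 23 CPM in WT against 285 ± 12 CPM in CRFR1-KO. P2ry2, a receptor for luminal ATP, had 82 and 52 counts in the WT pair and 36 and 34 in the CRFR1-KO pair, with a log2 fold change of -0.71 and an interval from -1.92 to 0.51. Adcy3, an adenylate cyclase gene, and Prkar2a, a regulatory subunit of protein kinase A, were at -0.77 and -0.33 on the log2 scale and overlapped between genotypes, and Prkar2a was at 0.10 without WT 2.

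Among 24 duct and progenitor transcription factors and Notch pathway genes, 22 were tested, 14 lower and 8 higher, with a median log2 fold change of -0.23. Of these, 9 were lower and 2 higher without overlap (16.9% and 16.6% of all genes), 3 were lower at an unadjusted p under 0.05 (3.15%), and 0 passed the edgeR adjustment. Prox1, a homeobox factor of duct, islet and lymphatic cells, had 329 and 309 counts in the WT pair and 118 and 90 in the CRFR1-KO pair. Its level was 4.35 ± 0.52 CPM in WT against 1.63 ± 0.36 CPM in CRFR1-KO (SD, n = 2 each; log2 fold change -1.41, SE 0.29, edgeR adjusted p = 0.586), so the WT libraries differed by less than the genotypes did. The receptor gene Notch2 was at 4.88 ± 0.01 and 3.04 ± 0.22 CPM, and Rbpj, the transcription factor of the Notch pathway, at 10.4 ± 1.9 and 7.08 ± 1.50 CPM. Hes1, a Notch target gene, had a log2 fold change of -0.56 (SE 0.33) and Sox4, a relative of Sox9, one of -0.69 (SE 0.31).

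Of 29 listed surface, junction and keratin genes of duct epithelium, 27 were tested, 19 lower and 8 higher, with a median of -0.19. Lower without overlap were 12 and higher 4, against 16.9% and 16.6% of all genes, with 7 lower and 0 higher at an unadjusted p under 0.05 (3.15% and 1.71% of all genes), and 0 passed the edgeR adjustment. Dcdc2a, a doublecortin-domain gene of the primary cilium, had 574 and 450 counts in the WT pair and 217 and 238 in the CRFR1-KO pair. In CPM this was 6.91 ± 0.05 against 3.55 ± 0.12 (SD, n = 2 each; log2 fold change -0.96, SE 0.20, edgeR adjusted p = 0.63), with little spread in either genotype. Bicc1, an RNA-binding protein gene of duct and kidney tubules, was at 11.1 ± 1.0 and 7.27 ± 0.06 CPM. Cp, encoding ceruloplasmin, stood at 22.6 ± 8.6 and 10.1 ± 2.4 CPM (log2 fold change -1.15, edgeR adjusted p = 0.801). DESeq2 called Cp lower (adjusted p = 0.027), as it did 0.294% of all genes. Neither limma-voom (adjusted p = 0.889) nor edgeR with the replicate block (adjusted p = 0.99958) called it. Lcn2, encoding lipocalin 2, an acute-phase protein, rested on 1 library, with 1502 counts in WT 1, 84 in WT 2 and 31 and 16 in CRFR1-KO. Its log2 fold change of -4.72 became -1.79 without WT 1. Without WT 2, where WT 1 alone stands for WT, the log2 fold changes were -5.61 for Lcn2 and -1.49 for Cp.

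The primary cilium senses flow in the duct, and of 18 genes of the cilium and the polycystins, all tested, 7 were lower and 11 higher, with a median of 0.12. The direction of that median turned on library totals (10 of 18 lower, median -0.06) and without WT 2 (10 of 18 lower, median -0.02). On library totals 10079 of all 15131 genes were lower, with a median of -0.13, so the list stayed above that median. Without WT 2 the median of all genes was 0.01. Pkhd1, encoding fibrocystin, a large protein of duct and tubule cilia, was the 1 gene of the 18 with an unadjusted p under 0.05 (3.15% of all genes were lower and 1.71% higher at that p), which is near the background. It had 642 and 455 counts in the WT pair and 359 and 237 in the CRFR1-KO pair, or 7.36 ± 0.58 against 4.68 ± 1.50 CPM (SD, n = 2 each; log2 fold change -0.65, SE 0.26, edgeR adjusted p = 0.9999). Cep290, Kif3a and Bbs2, ciliary genes that many cell types express, were at -0.47, 0.34 and 0.34 on the log2 scale.

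Osteopontin binds CD44 and several integrins. Of 9 receptor genes, all tested, 8 were lower and 1 higher (median log2 fold change -0.40), with 6 lower without overlap against 16.9% of all genes and 2 lower at an unadjusted p under 0.05 against 3.15%, and 0 passed the edgeR adjustment. Cd44 had 306 counts in WT 1, 96 in WT 2 and 66 and 67 in CRFR1-KO, with a log2 fold change of -1.32 that became -0.49 without WT 1. Itgb3, the beta subunit of a classical osteopontin receptor, had 28 counts in each WT library and 4 and 3 in CRFR1-KO, too few for more than a description. Itgb3 also passed the filter on low counts through its WT libraries alone. Its partner Itgav stood at 4.53 ± 0.19 CPM in WT against 3.44 ± 0.32 CPM in CRFR1-KO (SD, n = 2 each; log2 fold change -0.40), and Itga9, an integrin alpha subunit gene, had a log2 fold change of -0.46. Macrophages and fibroblasts also express these receptors.

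The tissue itself was dominated by acinar cells: 21 acinar markers summed to between 451830 and 629380 CPM, lowest in WT 1. These CPM are on scaled library sizes and are not shares of the counts. The scaling factor was highest in WT 1 (1.18) and lowest in CRFR1-KO 1 (0.892), where the sum was highest. A higher factor lowers the CPM in proportion, and most of this range, with most of the low sum in WT 1, is the scaling. Total counts were 63495457 to 71203640 per library. Markers of other tissues were scarce, with Serpina1a, a hepatocyte gene, and Lep, an adipocyte gene, at 0 in all 4 libraries.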

How the data were processed

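RNA-seq was run on 4 libraries. The authors deposited a table of whole-number counts per Ensembl gene, not normalized. FastQC, DESeq2 and edgeR are named per the submitters' processing notes, with no version or role. The aligner, counting program, strand setting, annotation and genome build were not given in the sources used here. Symbols, positions and exon lengths were taken from GENCODE M21 (GRCm38), where 55141 of 55401 identifiers matched.

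The main test was that of edgeR 4.0.16 in R 4.3.3 (TMM scaling, filterByExpr defaults, quasi-likelihood F test, two-sided, Benjamini-Hochberg adjustment over 15131 genes, threshold 0.05). Standard errors come from the F statistic and 95% intervals from a t distribution with 7.1 degrees of freedom. A permutation test of 2 against 2 cannot go below an exact p of 0.333, so none was used. No library pair was a duplicate. The chi-square over its degrees of freedom was lowest for the CRFR1-KO pair (40.9) and highest for the WT pair (145). It was 43.97 for WT 2 against CRFR1-KO 1. By this measure WT 2 was nearer to CRFR1-KO 1 than to WT 1. Alternatives were other scalings and filters, DESeq2 1.42.0, limma-voom (limma 3.58.1), a replicate block, leaving out each library and summing models that share exon bases.

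The members and lists were chosen with earlier results of these data known. Named were all 9 duct genes, 11 set related genes, and of each related list those past the threshold and the 4 with the smallest p. A gene the rule took is not reported here. Of the marker lists, 1 of 8 erythroid genes (Ahsp) had no match. Summed levels of the erythroid (19.6 to 62.7 CPM), mesothelial (1.65 to 9.70), adipocyte (7.81 to 9.36), lymphocyte (1.58 to 4.19) and hepatocyte (7.09 to 15.0) lists were low.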

Additional observations from a re-analysis of the deposited data

How the results depend on the processing

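The count of genes past the threshold was 4 in edgeR. It was 60 in DESeq2, 0 in limma-voom, 0 with exon-sharing models summed, 7 with the replicate block, and between 0 and 69 when 1 library was left out. The labels do not say what the shared replicate numbers mark, and same-numbered libraries did not deviate together (r = -0.0915 across 10895 genes, which are not independent replicates). The block called 0 of the 9 duct genes, as did edgeR without it. DESeq2 called 1 of them, and leaving out 1 library called between 0 and 1. Scaling on library totals moved the median of all genes by -0.126. It turned Onecut1 to -0.171 and Krt19 to -0.00506 on the log2 scale, and summing models turned Onecut1 to -0.198. With 1 library left out, the log2 fold change ran from -0.453 to 0.767 for Onecut1, from -0.655 to 0.102 for Prkar2a, from -0.343 to 0.0795 for Krt7, from -0.147 to 0.145 for Ano1 and from -0.224 to 0.0548 for Muc1. A minimum of 1 CPM in 2 libraries removed 3 duct genes (Cftr, Car2 and Sctr) from testing. The median log2 fold change of the 6 left was -0.60, with 5 of them lower. Of 513 values of 40 named genes under the alternatives, 498 kept their direction and side of the threshold. None of the 40 passed in the main fit, so keeping that side was likely from the start. A change in size did not count, such as that of Lcn2 from -4.72 to -1.79 without WT 1. The low counts of Cftr, Sctr, Car2 and Slc4a4 limit their precision.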
